A study of Rattus norvegicus with 6 samples.

Results

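Actin cytoskeleton genes were followed in bulk RNA sequencing of pancreas from rats with acute pancreatitis (AP) and from saline controls. The genes were taken from a list of 44 symbols that encode cytoplasmic actins, the Arp2/3 complex and the proteins that activate it or bind, cap, cut, bundle and anchor actin filaments. The list was chosen with earlier results of these data known. A row of the deposited count table was found for 43 of them, out of 19780 gene symbols in all, and Tmsb4x is not analysed here. All 43 passed the filter on low counts and were tested.

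The samples were pancreas of male wild-type Sprague-Dawley rats, 8 weeks old, 3 with AP after intraperitoneal L-arginine and 3 controls given saline by the same route. The sample labels give L-arginine at 5 mg/kg and a treatment time of 36 hours, whereas the design text gives 2 doses of 2.5 g/kg and 48 hours, and the sources do not settle which applied. A large excess of L-arginine damages acinar cells in rodents. No label says whether the 3 samples of a group came from different rats, so the p-values cover the sample-to-sample spread, which may be technical.

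Actin in cells cycles between free monomers and filaments. Profilins and beta-thymosins bind monomers, cofilins cut old filaments, and the Arp2/3 complex, switched on by proteins of the WASP and WAVE families, starts new branches from existing filaments. Leukocytes use branched actin to crawl and to engulf particles, and the acinar cells of the pancreas keep an actin web under the apical membrane through which zymogen granules are released. Several of the proteins exist as alternative forms from separate genes, some of them typical of blood cells.

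Column totals ran from 14453584 to 18961353 counts. Acinar enzyme and transcription factor genes (13 of 14 listed genes with a row) took 0.801%, 0.889% and 5.89% of the named counts in AP replicates 1 to 3, against 51.3%, 53.3% and 52.4% in control replicates 1 to 3. AP replicate 3 therefore stood apart from the other AP libraries in its acinar transcripts. Because of this shift, the scaling between libraries matters. Levels are given as normalised CPM, that is, counts over a library size rescaled with TMM and expressed as CPM, a method that sets the middle of the genes at no change. With library totals in place of TMM, the median log2 fold change of all tested genes moved by 2.17, and directions of the actin genes named below that turn with that scaling are given beside them. In bulk tissue, a change in the number of cells of a type and a change in RNA per cell cannot be told apart.

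Most of the actin cytoskeleton genes rose in AP. Of the 43 tested, 37 rose, 3 fell (Wasl, Rdx and Arpc1a) and 3 did not pass the test (Gsn, Evl and Myl9) by edgeR's quasi-likelihood test with Benjamini-Hochberg adjustment over all genes. Among all 13240 tested genes, 34.1% rose and 30.5% fell. The median log2 fold change of the 43 genes was 1.80, beside 0.07 for all tested genes. A rise of at least 2-fold was found in 34 of the 43 genes (24.2% of all tested genes), of at least 4-fold in 20 (13.9%) and of at least 16-fold in 3 (4.37%), which were Was, Capg and Coro1a. The AP and control libraries did not overlap in 36 genes that were higher in AP (37.8% of all tested genes) and in the 3 that fell (33.1%). Of the 3 that fell only Wasl fell at least 2-fold (18.9% of all tested genes did). With library totals all 43 rose and 0 fell, beside 88.2% and 4.33% of all tested genes. With library totals without the acinar genes 41 rose and 1 fell, beside 70.8% and 10.1%. The same 5 genes (Arpc1a, Evl, Gsn, Rdx and Wasl) lay below the median of all tested genes with TMM, with library totals, with totals without the acinar genes, with DESeq2 size factors and with upper quartile scaling.

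**Figure D1:**
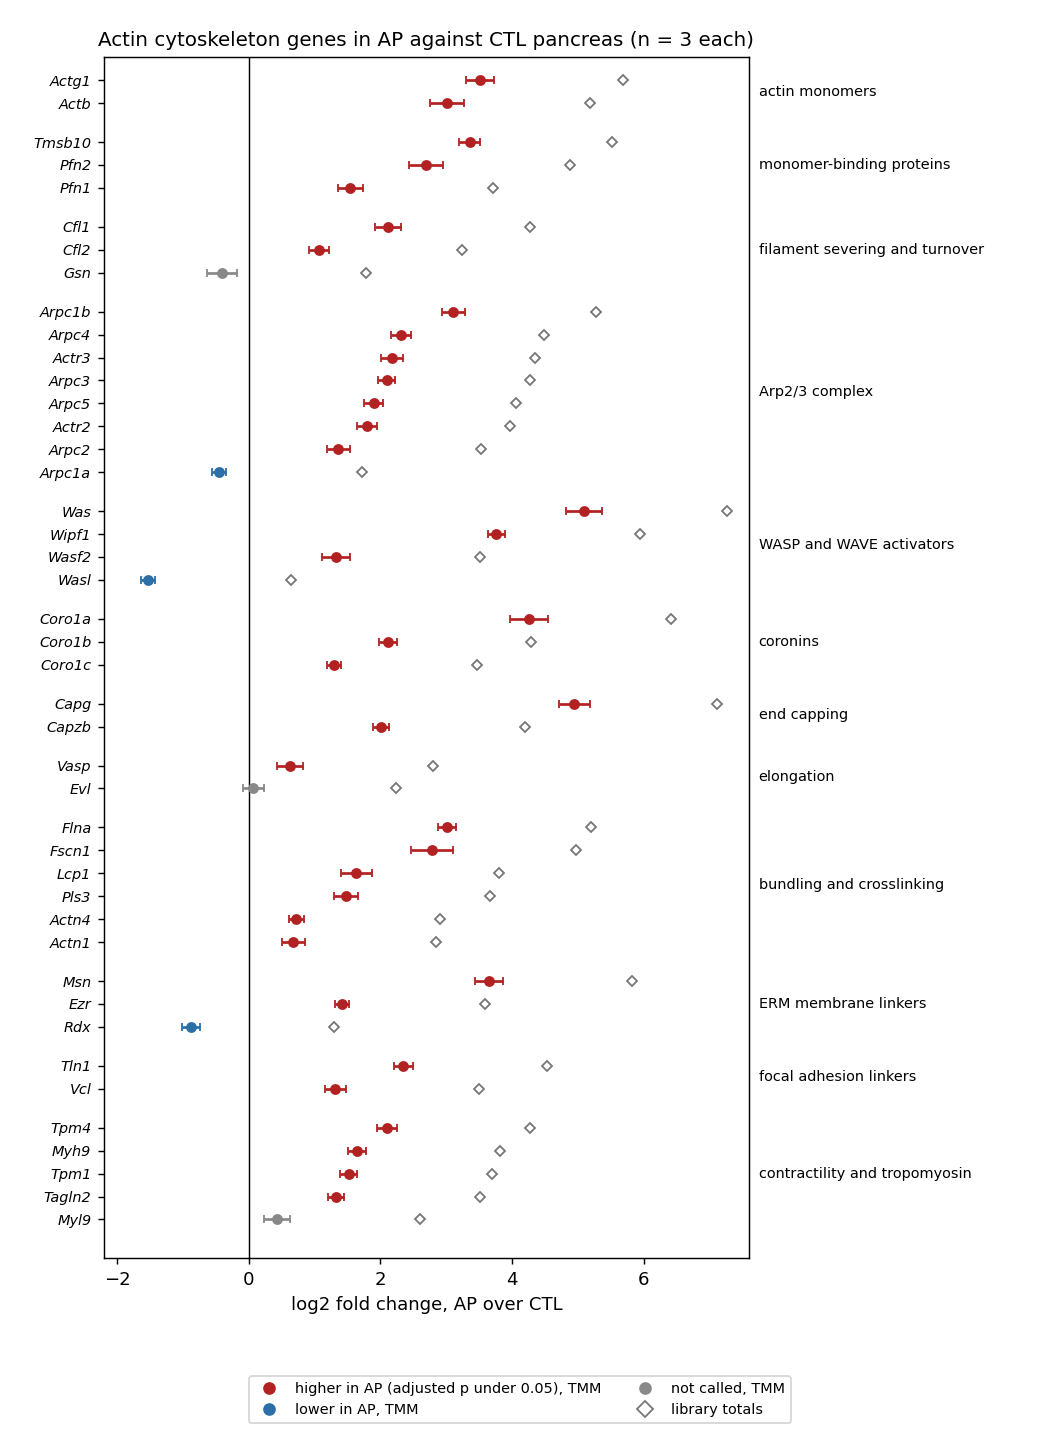
Log2 fold change, AP over CTL, of the 43 tested genes by role (n = 3 per group). Filled points show TMM-scaled values with their standard error, coloured by the edgeR call at an adjusted p of 0.05, and open diamonds show the values with library totals. Was, Capg and Coro1a lie farthest to the right, and Wasl, Rdx and Arpc1a, which fell with TMM, lie right of 0 with library totals.

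Both cytoplasmic actins rose. Actb, beta-actin, stood at 2667, 3458 and 3856 normalised CPM in AP replicates 1 to 3, against 439, 414 and 383 in control replicates 1 to 3. Actg1, gamma-actin, stood at 1016, 898 and 1323 normalised CPM in AP, against 102, 92.9 and 87.9 in controls. In both genes the lowest AP library lay far above the highest control library. Actb was 8.08-fold higher (log2 fold change 3.01 ± 0.260 SE, edgeR adjusted p = 2.05e-05) and Actg1 11.5-fold higher (3.52 ± 0.212, 3.18e-06). The ratio of Actb to Actg1 counts within a library, which does not depend on the scaling, was 2.62, 3.85 and 2.92 in AP, against 4.32, 4.45 and 4.36 in controls. It was thus lower in every AP library, with a shift of -0.50 on the log2 scale (exact permutation p = 0.1, the smallest that 3 against 3 allows). The coding sequences of both actins are nearly identical, and the sources used here do not say how reads matching both were counted, so the split between them is uncertain. Together they took 0.931% ± 0.105 of the named counts in AP and 0.0238% ± 0.00170 in controls (SD, n = 3 each).

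Serum response factor (SRF) and its cofactors of the MRTF family sense free actin and switch on actin genes through an element called the CArG box. The box was searched in 300-base promoters (250 bases before to 50 after the start of the gene) from RefSeq, build GRCr8, found for 37 of the 43 genes. Its pattern is the same on both strands. It was present in 1 of the 37 promoters (2.70%), that of Actg1, beside 1.64% of all 27457 promoters of the table. Promoters of Actb, Actn4, Arpc1a, Capg, Lcp1 and Myl9 were not searched. A second motif, AGGAAGT on either strand, a core bound by ETS factors, which include PU.1 of myeloid cells, was chosen after the promoters had been read. It was present in 5 of the 37 promoters (13.5%), those of Arpc1b, Coro1b, Myh9, Pfn1 and Was, beside 8.23% of all promoters. No promoter held both motifs, so they overlap nowhere. The stretches below show these matches in an actin gene and in a pair of genes that rose strongly, with the motif in capitals and the gene strand read 5′ to 3′. The Actg1 stretch is chr10:106120992-106121081 (minus strand), with the box starting 90 bases before the start. The Arpc1b stretch is chr12:14609489-14609543 (minus strand) and the Was stretch is chrX:17076985-17077056 (plus strand), where the motif reads ACTTCCT because it lies on the opposite strand.
Actg1: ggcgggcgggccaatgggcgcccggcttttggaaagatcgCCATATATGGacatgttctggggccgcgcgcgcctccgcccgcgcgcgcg
Arpc1b: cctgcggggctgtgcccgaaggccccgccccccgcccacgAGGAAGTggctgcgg
Was: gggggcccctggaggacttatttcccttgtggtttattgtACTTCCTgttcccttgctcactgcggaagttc
A match describes these letters and does not show binding.

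The genes of monomer-binding proteins rose as well. Tmsb10, thymosin beta 10, which holds actin monomers in reserve, stood at 470, 483 and 560 normalised CPM in AP, against 43.3, 53.7 and 50.8 in controls. It was 10.2-fold higher (log2 fold change 3.36 ± 0.162, edgeR adjusted p = 1.35e-06). Its symbol occurs on 2 rows of the table, which were summed, and the smaller row held 38 to 78 counts in AP and 0 to 2 in controls. Pfn1, the widespread profilin that feeds monomers to growing ends, stood at 160, 186 and 257 normalised CPM in AP, against 77.5, 67.0 and 62.5 in controls (2.91-fold, adjusted p = 0.000164). Pfn2, best known from neurons, stood at 15.9, 14.4 and 11.6 in AP, against 1.86, 1.77 and 2.89 in controls (6.50-fold, 3.5e-05). Neither profilin overlapped between the groups, but their count ratio did, at 10.0 to 22.2 in AP and 21.6 to 41.6 in controls (log2 difference -1.14, exact permutation p = 0.2).

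Cofilins rose and gelsolin did not pass the test. Cfl1, the non-muscle cofilin that severs filaments, stood at 335, 475 and 549 normalised CPM in AP, against 112, 104 and 97.5 in controls (4.33-fold, edgeR adjusted p = 3.33e-05). Cfl2, the muscle-type cofilin, stood at 25.5, 21.8 and 21.7 in AP, against 11.8, 11.8 and 9.32 in controls (2.09-fold, 0.000389). The count ratio of Cfl1 to Cfl2 was 13.1, 21.8 and 25.3 in AP, against 9.47, 8.88 and 10.5 in controls, without overlap. Gsn, gelsolin, which cuts and caps filaments when calcium rises, stood at 165, 205 and 122 in AP, against 262, 162 and 229 in controls. Its groups overlapped (log2 fold change -0.41 ± 0.232, edgeR adjusted p = 0.156), but it rose with library totals (1.78) and with totals without the acinar genes (0.75).

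Of the 8 Arp2/3 complex genes, 7 rose and 1 fell, with a median log2 fold change of 2.00. Actr2 and Actr3, the actin-related proteins that form the base of the new branch, were 3.49-fold and 4.52-fold higher. Actr2 stood at 516, 649 and 601 normalised CPM in AP, against 171, 168 and 167 in controls, and Actr3 at 381, 512 and 513 against 106, 100 and 105. Arpc2, part of the core that clasps the mother filament, was 2.57-fold higher, with 239 to 305 normalised CPM in AP libraries and 88.9 to 127 in control libraries. Arpc3, Arpc4 and Arpc5, smaller subunits that hold the complex together, rose 4.28-fold, 4.96-fold and 3.72-fold. Arpc3 had 127, 137 and 132 normalised CPM in AP, against 31.9, 34.0 and 26.5 in controls, Arpc4 had 108, 129 and 143 against 23.1, 24.4 and 29.1, and Arpc5 had 225, 290 and 298 against 74.6, 75.2 and 68.3. No AP library of these 6 genes fell to the level of a control library. Their log2 fold changes lay between 1.36 and 2.31 with standard errors of 0.128 to 0.173.

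The remaining subunit position is filled by either of 2 genes, and these moved in opposite directions with TMM. Arpc1b, the form on which human leukocytes and platelets depend, stood at 274, 394 and 341 normalised CPM in AP, against 40.8, 38.4 and 37.6 in controls. Arpc1a, the alternative form, stood at 62.4, 61.1 and 62.0 in AP, against 75.4, 89.6 and 89.2 in controls. Arpc1b rose 8.64-fold (log2 fold change 3.11 ± 0.169, edgeR adjusted p = 2.19e-06), more than any other subunit gene, whereas Arpc1a fell by 0.45 ± 0.111 on the log2 scale (0.00674). The fall of Arpc1a depends on the scaling, since it rose by 1.72 with library totals, where the median tested gene rose by 2.25. The change in balance does not depend on it. The count ratio of Arpc1b to Arpc1a was 4.39, 6.46 and 5.50 in AP, against 0.542, 0.429 and 0.422 in controls, an 11.7-fold difference (log2 difference 3.54, exact permutation p = 0.1, the smallest possible). Arpc1b took 84.2% ± 2.59 of the counts of both genes in AP and 31.6% ± 3.07 in controls (SD, n = 3 each, not corrected for transcript length). The 95% Wilson interval of this share was at most 6.36 percentage points wide in any library, counting error only. Both genes summed, a quantity formed after their values were seen, averaged 398 ± 59.6 normalised CPM in AP libraries and 124 ± 6.49 in control libraries, a log2 difference of 1.69, inside the range of the other 6 subunit genes.

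**Figure D2:**
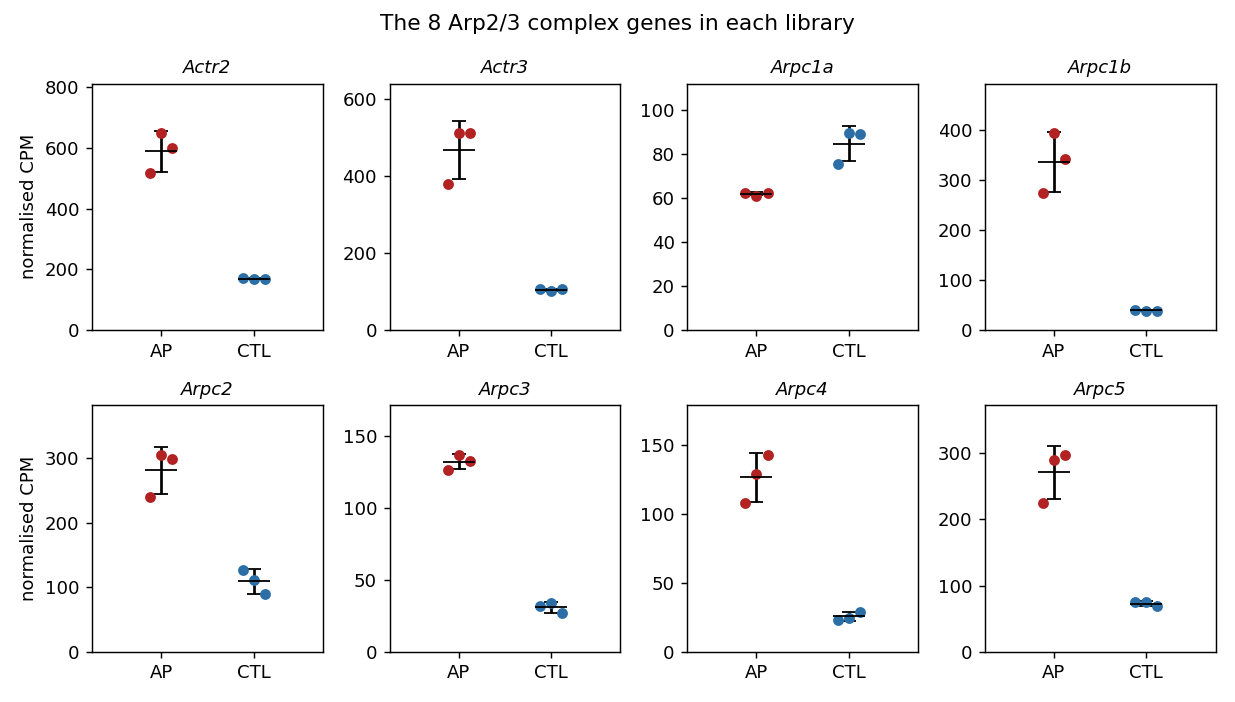
Normalised CPM (TMM) of the 8 Arp2/3 complex genes in each library, AP left and CTL right, each panel with its own axis from 0. Points are libraries, and bars show the mean with the SD (n = 3). Arpc1a is the gene of the 8 whose AP libraries (61.1 to 62.4) lie below the controls (75.4 to 89.6).

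The activators of the complex differed most among themselves. Was, the WASP protein of blood cells, stood at 39.9, 38.5 and 38.2 normalised CPM in AP, against 0.497, 1.64 and 1.29 in controls, where libraries held 4 to 13 counts. It rose 34.2-fold (log2 fold change 5.10 ± 0.278, edgeR adjusted p = 2.19e-06), which makes it the largest rise of the 43 genes. Wipf1, the partner protein that stabilises WASP, stood at 128, 118 and 118 in AP, against 9.81, 7.71 and 9.32 in controls (13.6-fold, 6.84e-07). Wasl, the widespread N-WASP, stood at 31.6, 28.8 and 29.6 in AP, against 89.8, 79.2 and 91.1 in controls. It fell by 1.53 ± 0.110 on the log2 scale (edgeR adjusted p = 7.89e-06), the largest fall of the 43 genes, but rose by 0.65 with library totals. Wasf2, the WAVE2 protein that acts at the leading edge, was 2.50-fold higher, with 47.7 to 63.4 normalised CPM in AP libraries and 17.8 to 30.5 in control libraries. The count ratio of Was to Wasl was 1.26, 1.34 and 1.29 in AP, against 0.00553, 0.0207 and 0.0141 in controls. This was the widest separation of the gene pairs compared (log2 difference 6.68, exact permutation p = 0.1, the smallest possible).

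All 3 coronins rose, to different degrees. Coro1a, the leukocyte coronin, stood at 67.4, 115 and 131 normalised CPM in AP, against 4.72, 6.44 and 5.14 in controls (19.1-fold, edgeR adjusted p = 5.34e-06). Coro1b, which helps to take branches apart, stood at 174, 174 and 177 in AP, against 35.9, 38.3 and 46.9 in controls (4.34-fold, 3.99e-06). Coro1c, a further widespread coronin, was 2.45-fold higher, at 90.5, 102 and 93.5 in AP, against 39.5, 37.5 and 39.9 in controls. The count ratio of Coro1a to Coro1c was 0.745, 1.12 and 1.40 in AP, against 0.119, 0.172 and 0.129 in controls, without overlap. Among the 43 genes Coro1a varied most between AP libraries, with its highest value 1.94 times its lowest.

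Both capping genes rose. Capg, a capping protein abundant in macrophages, stood at 129, 211 and 169 normalised CPM in AP, against 6.33, 5.69 and 4.34 in controls. It was 30.9-fold higher (log2 fold change 4.95 ± 0.239, edgeR adjusted p = 1.35e-06). Capzb, the beta subunit of the common capping protein, was 4.04-fold higher, at 204, 240 and 208 in AP, against 52.8, 55.9 and 52.4 in controls. Capg and Gsn belong to the same protein family, and their count ratio was 0.783, 1.03 and 1.38 in AP, against 0.0242, 0.0350 and 0.0190 in controls (log2 difference 5.34). The Ena/VASP proteins, which speed the growth of filament ends, differed little between the groups. Vasp stood at 56.6, 45.3 and 66.0 normalised CPM in AP, against 45.3, 33.7 and 29.1 in controls. Its lowest AP library and highest control library lay at the same level, so the groups touched, and the rise of 1.55-fold (edgeR adjusted p = 0.0205) was not called without AP replicate 3, control replicate 2 or control replicate 3 (adjusted p of 0.0645, 0.0714 and 0.0701). Evl stood at 17.9, 21.0 and 24.9 in AP, against 21.9, 19.1 and 19.8 in controls, and was not called (log2 fold change 0.07 ± 0.157, edgeR adjusted p = 0.712, although it rose by 2.24 with library totals and by 1.21 with totals without the acinar genes).

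All 6 bundling and crosslinking genes rose. Flna, filamin A, which links filaments into networks and to the membrane, rose 8.09-fold, to 456, 461 and 431 normalised CPM in AP, against 58.6, 52.6 and 55.3 in controls (edgeR adjusted p = 1.03e-06). Fscn1, fascin, the bundler of filopodia, stood at 43.1, 47.9 and 31.5 in AP, against 8.81, 5.43 and 3.21 in controls (6.90-fold, 9.21e-05). Lcp1, the plastin of leukocytes, stood at 385, 661 and 592 in AP, against 187, 197 and 144 in controls. Its rise of 3.10-fold (log2 fold change 1.63 ± 0.233, edgeR adjusted p = 0.000352) was close to that of Pls3, the plastin of other tissues, at 2.79-fold (1.48 ± 0.179, 0.000137). Pls3 stood at 52.9, 50.4 and 36.4 in AP, against 18.1, 14.3 and 17.7 in controls. The count ratio of Lcp1 to Pls3 overlapped between the groups, at 7.28, 13.1 and 16.3 in AP and 10.3, 13.8 and 8.12 in controls (log2 difference 0.15, exact permutation p = 0.8). The alpha-actinins, which crosslink filaments at adhesions and stress fibres, showed the smallest rises of these 6 genes, with Actn1 at 1.60-fold and Actn4 at 1.65-fold (edgeR adjusted p = 0.00919 and 0.000526). Actn1 stood at 86.3, 60.7 and 89.5 in AP, against 56.6, 48.4 and 42.6 in controls, and Actn4 at 180, 165 and 177 in AP, against 104, 110 and 102 in controls. Their ratio overlapped between the groups (log2 difference -0.05, exact permutation p = 0.9).

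The ERM proteins tie filaments to the plasma membrane, and their 3 genes parted. Msn, moesin, the main ERM protein of leukocytes and endothelium, stood at 383, 622 and 552 normalised CPM in AP, against 44.1, 41.6 and 37.9 in controls (12.6-fold, edgeR adjusted p = 2.89e-06). Ezr, ezrin, typical of epithelia, stood at 118, 117 and 127 in AP, against 47.8, 45.7 and 41.8 in controls (2.67-fold, 1.15e-05). Rdx, radixin, stood at 68.6, 72.8 and 69.5 in AP, against 108, 136 and 144 in controls. Rdx fell by 0.88 ± 0.134 on the log2 scale (edgeR adjusted p = 0.000527), but rose by 1.30 with library totals and was not called with totals without the acinar genes (0.26, adjusted p = 0.115). The count ratio of Msn to Rdx was 5.58, 8.55 and 7.94 in AP, against 0.409, 0.306 and 0.263 in controls (log2 difference 4.50). That of Msn to Ezr was 3.25, 5.32 and 4.35 in AP, against 0.922, 0.909 and 0.908 in controls (log2 difference 2.21).

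Genes of focal adhesion linkers and of non-muscle contraction rose by moderate amounts. Tln1, talin 1, which activates integrins, was 5.10-fold higher, at 302, 335 and 256 normalised CPM in AP, against 55.2, 61.3 and 58.3 in controls. Vcl, vinculin, which reinforces the talin link, was 2.49-fold higher, at 44.4 to 60.6 in AP and 18.7 to 24.0 in controls. Myh9, the heavy chain of non-muscle myosin IIA, stood at 553, 540 and 545 in AP, against 189, 168 and 167 in controls (3.13-fold, edgeR adjusted p = 1.81e-05). The AP libraries of Myh9 lay closer together than its controls did. Of the tropomyosins, which coat filaments, Tpm4 rose 4.29-fold and Tpm1 2.87-fold. Tpm4 stood at 362, 392 and 455 normalised CPM in AP, against 104, 89.3 and 88.7 in controls, and Tpm1 at 165, 127 and 147 in AP, against 49.2, 51.7 and 52.4 in controls. Neither overlapped, and their count ratio was 2.19, 3.10 and 3.09 in AP, against 2.11, 1.73 and 1.69 in controls. Tagln2, transgelin 2, rose 2.51-fold, to 327 to 350 normalised CPM in AP, against 132 to 139 in controls. Myl9, a myosin light chain of smooth muscle, stood at 14.2, 15.6 and 15.4 in AP, against 14.5, 8.97 and 10.1 in controls, with overlap. Myl9 was not called (log2 fold change 0.42 ± 0.198, edgeR adjusted p = 0.0900), except with library totals (2.60), with totals without the acinar genes (1.57) and without control replicate 1 (0.67, adjusted p = 0.0120).

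**Figure D3:**
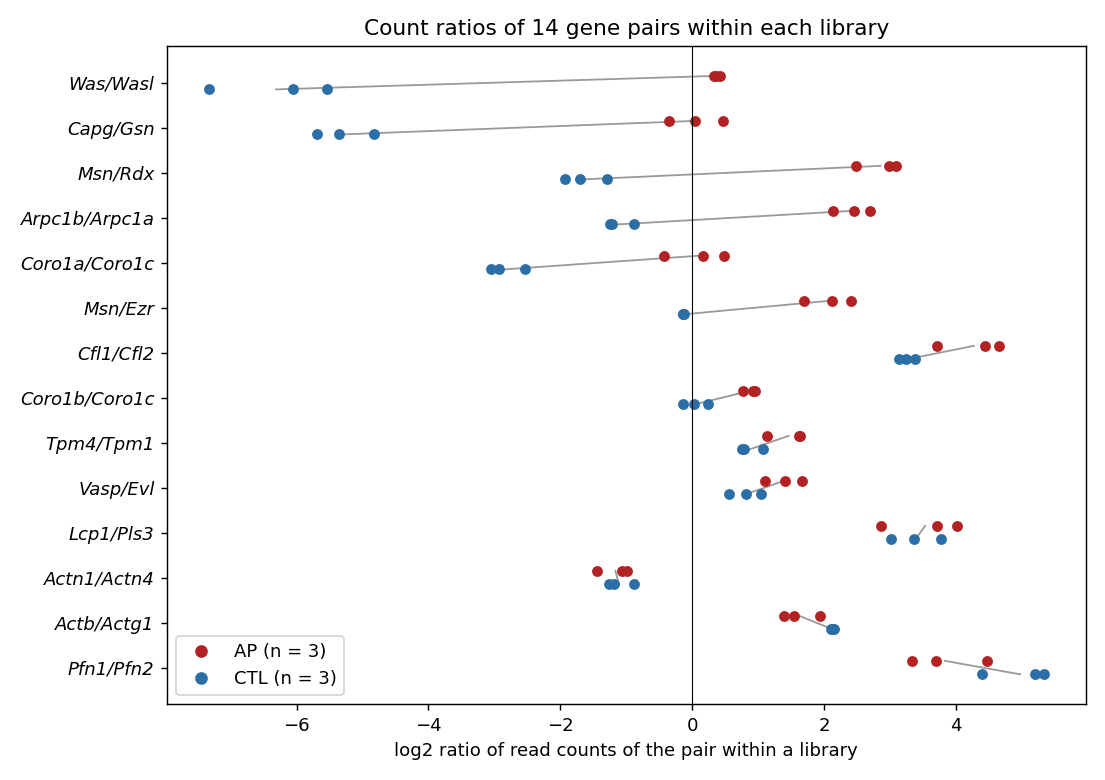
Log2 ratio of the read counts of 14 gene pairs within each library, AP (red, upper points of each row) and CTL (blue, lower points), with a line between the group means (n = 3 each). The ratios of Was to Wasl, Capg to Gsn, Msn to Rdx and Arpc1b to Arpc1a separate the groups most, while Lcp1 to Pls3, Actn1 to Actn4 and Pfn1 to Pfn2 overlap.

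In the 14 pairs compared, exact permutation p-values adjusted over the pairs were no lower than 0.127, since 0.1 is the smallest raw value. The pairs were chosen with earlier results of these data known. In 5 of them a form linked to blood cells was set over a widespread or epithelial one. These were Was to Wasl, Arpc1b to Arpc1a, Coro1a to Coro1c, Lcp1 to Pls3 and Msn to Ezr. Their log2 differences, in that order, were 6.68, 3.54, 2.91, 0.15 and 2.21. Arpc1b and Msn are expressed by many other cell types too. Msn to Rdx (4.50) and Capg to Gsn (5.34) are not among these 5. The ratio of Coro1b to Coro1c was 1.93, 1.70 and 1.89 in AP, against 0.909, 1.02 and 1.18 in controls. The ratio of Vasp to Evl was 3.16, 2.16 and 2.65 in AP, against 2.07, 1.77 and 1.47 in controls.

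Other genes of actin control were read from 6 lists of 83 further genes, of which 77 were tested. Of these 55 rose (71.4%) and 9 fell (11.7%), with a median log2 fold change of 1.21. Among all tested genes 34.1% rose and 30.5% fell, with a median of 0.07. In the list of further Arp2/3, WASP and WAVE genes, 12 of 18 rose and 3 fell. Those with the lowest p were Nckap1l (31.5-fold), the WAVE complex subunit of blood cells, Hcls1 (24.7-fold), the cortactin relative of blood cells, and Abi3 (13.2-fold), a WAVE complex subunit. Nckap1, the widespread counterpart of Nckap1l, averaged 84.6 ± 7.51 normalised CPM in AP libraries and 153 ± 5.32 in control libraries (SD, n = 3 each) and fell by 0.85 ± 0.116 on the log2 scale (edgeR adjusted p = 0.000271), as did Arpc5l (-0.66), the alternative to Arpc5, and Wipf3 (-1.15), a relative of Wipf1. With library totals Nckap1, Arpc5l and Wipf3 rose (1.33, 1.51 and 1.02), less than the median tested gene (2.25). With totals without the acinar genes Arpc5l rose (0.48, edgeR adjusted p = 0.0231). On that scale Nckap1 (0.29, 0.0505) and Wipf3 (-0.009, 0.980) were not called.

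Of 9 tested formins, which build unbranched filaments, 7 rose and Daam1 and Daam2 were not called. Only 6 rose with DESeq2 size factors, with upper quartile scaling, with the DESeq2 Wald test or with the filter at 50 counts in 3 samples. Likewise 6 rose with the replicate number as a block or with any library left out. The formins with the lowest p were Fmnl1 (16.6-fold), Fmnl2 (7.26-fold) and Inf2 (8.89-fold). In the list of further monomer, capping, severing and turnover genes 13 of 18 rose (72.2%) and 4 fell (22.2%). The share that fell was thus not far from the 30.5% of all tested genes. Gmfg (13.1-fold), Twf2 (15.8-fold) and Cap1 (5.87-fold) had the lowest p. The 4 that fell, named after their values were seen, were Vil1, villin of epithelial microvilli (-3.83, and -1.68 with library totals), Avil (-1.01), Enah (-0.91) and Dstn (-0.63). The last 3 rose with library totals (1.16, 1.27 and 1.54), less than the median tested gene (2.25). In the list of further myosin, tropomyosin and crosslinking genes 10 of 15 rose and 1 fell, and Myo1f, a myosin of leukocytes, rose 42.7-fold, Myo9b 3.86-fold and the adhesion protein gene Zyx 6.65-fold. The exception was Pls1, the plastin of epithelial microvilli, which fell by 2.47 ± 0.240 on the log2 scale and was at -0.30 with library totals. Of the 4 genes of SRF and MRTF, Fhl2, a cofactor that SRF also switches on, rose 7.57-fold and Mrtfa 2.37-fold, whereas Srf (0.38 ± 0.158, edgeR adjusted p = 0.0605) and Mrtfb (0.10 ± 0.210, 0.697) were not called.

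Marker genes of several cell types moved with these changes, and their part in the results was not tested. For the counts that follow, 34.1% of all tested genes rose and 30.5% fell with TMM. The 12 leukocyte markers summed to 5410 to 5773 normalised CPM in AP, against 121 to 148 in controls, and all 12 rose. The B cell gene Cd79a had no count in any control library. The 8 fibroblast and stellate cell markers summed to 3937 to 9144 in AP, against 1041 to 1380 in controls, and 7 rose. The 10 smooth muscle and pericyte markers summed to 238 to 286 in AP, against 108 to 137 in controls, and 7 rose. The 8 endothelial markers summed to 233 to 257 in AP, against 144 to 179 in controls, with 4 that rose and 1 that fell. With library totals all 8 rose, as did 88.2% of all tested genes. The 5 mesothelial markers summed to 124 to 182 in AP, against 18.8 to 57.1 in controls, and all 5 rose. The 6 duct markers with a row, which summed to 445 to 898 in AP and 523 to 548 in controls, and the 6 islet markers, at 873 to 1311 and 594 to 1343, overlapped between the groups. Of the 6 duct markers 2 rose (33.3%) and 1 fell (16.7%), with log2 fold changes of -1.12 to 3.88. Neither share was above that of all tested genes. Of the islet markers 0 rose and 1 fell. All 6 of either list rose with library totals, as most tested genes did. Their median log2 fold changes were then 2.65 (duct) and 1.95 (islet), beside 2.25 for all tested genes. All 13 acinar markers with a row fell, also with library totals and with totals without the acinar genes. The 9 mitochondrially encoded genes, a gauge of RNA composition, summed to 16011 to 21452 in AP, against 43690 to 50396 in controls, and all 9 fell with TMM (median log2 fold change -1.31). Their direction turned with the scaling, since 6 rose and 0 fell with library totals (median 0.86), and 0 passed the test with totals without the acinar genes (median -0.17).

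**Figure D4:**
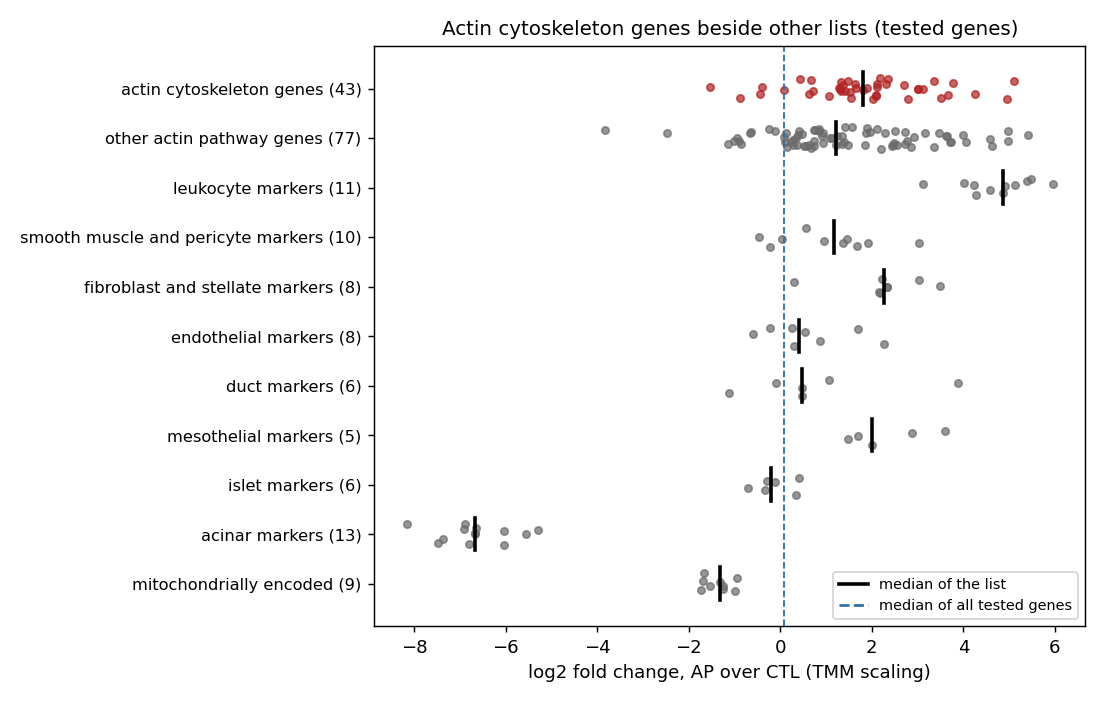
Log2 fold change (AP over CTL, TMM scaling) of the actin cytoskeleton genes beside other actin genes and marker lists, with the number of genes drawn, the median of each list as a black bar and that of all tested genes as a dashed line. Points are genes, and Cd79a, which had no control count, is not drawn. The actin cytoskeleton genes spread from -1.53 to 5.10, with most of them right of the dashed line.

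On the scale of library totals, the 43 genes together took 2.54%, 2.89% and 2.81% of the named counts in AP replicates 1 to 3, against 0.151%, 0.145% and 0.139% in control replicates 1 to 3. The ratio of the group means was 19.0, and 9.28 when the acinar genes were left out of the denominator (2.82% ± 0.227 in AP and 0.304% ± 0.0110 in controls, SD, n = 3 each). On these 2 scales the median tested gene rose too, by 2.25 and 1.22 on the log2 scale, beside medians of 3.98 and 2.94 for the 43 genes. Within the summed counts of the 43 genes both actins held 33.9% ± 2.50 in AP and 16.4% ± 0.507 in controls. AP replicate 3, which held most acinar transcripts of the AP libraries, was the lowest AP library in 10 of the 43 genes (23.3%). It was the highest in 15 (34.9%), and AP replicate 1 was the lowest in 22 (51.2%). Among the 11307 symbols with at least 50 counts in every AP library, these shares were 35.3%, 36.8% and 35.5%. Leaving out any library moved no fold change of the 43 genes by over 1.5 times. The coefficient of variation between AP libraries had a median of 13.3% over the 43 genes, and that between control libraries 10.9%. Over the 11307 symbols the medians were 12.0% and 15.5%. These symbols were chosen by AP counts alone and can hold few control counts, so the 2 control medians are not compared on like terms.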

How the data were processed

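Whole-number read counts per gene were deposited by the authors in 1 table for 6 samples, 3 AP and 3 controls. Per the submitters' processing notes the authors used FastQC, STAR, featureCounts and DESeq2 with build mRatBN7.2. The sources used here give no versions, annotation, strand setting or rule for multi-mapping reads, so genes with near-identical copies (Actb, Actg1, Cfl1, Pfn1, Tmsb10) are uncertain. Of 23096 rows, 3110 carry no gene name and were left out; they held 1.41% to 2.10% of AP counts and 5.48% to 7.69% of control counts. Rows sharing a symbol were summed.

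AP was compared with control by edgeR 4.0.16 (R 4.3.3; TMM, filterByExpr, quasi-likelihood test, Benjamini-Hochberg over all tested genes, called at 0.05), tested on simulated data. The simulated data held no shift in acinar transcripts like that of AP, so they do not show how the scalings deal with it. Standard errors were taken as |log2 fold change| divided by √F. TMM factors averaged 2.13 in AP and 0.470 in controls, so a normalised CPM value cannot be read as a share of reads. Pair ratios were computed within a library from counts plus 0.5 and tested by exact permutation, two-sided. The gene list, roles, pairs and marker lists were chosen with earlier results of these data known. All listed genes are named, and of the other actin lists the 3 genes with the lowest p and up to 3 called against the majority. One of those lists is counted in the totals but is not reported here. Alternatives were other scalings, DESeq2 1.42.0, limma-voom (limma 3.58.1), other filters, a replicate block, a 2-fold threshold and each library left out. Chi-square per gene between replicates of a group ran from 40.1 to 152, beyond sampling noise. Intervals reflect counting error alone. PCR copies are counted as separate reads where molecules carry no identifier, so the intervals may be too narrow even for that error.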

Additional observations from a re-analysis of the deposited data

How the results depend on the processing

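The counts of 37 actin cytoskeleton genes that rose and 3 that fell were the same with DESeq2 size factors, upper quartile scaling, the DESeq2 Wald test, limma-voom, and with the low-count filter removed or raised to 50 counts in 3 samples, and ran from 36 to 38 and from 3 to 3 when 1 library was left out. The falls depended on the scaling. With library totals 0 of these genes fell, and 573 of all tested genes fell and 11679 rose, with 1 of the further actin genes falling. With library totals without the acinar genes 1 fell (Wasl, -0.38), and 1334 of all tested genes fell and 9379 rose, with 2 of the further actin genes falling. Values that turned sign were those of Gsn (1.78 with totals and 0.75 without the acinar genes), Arpc1a (1.72 and 0.69), Rdx (1.30 and 0.26) and Wasl (0.65 with totals). With a 2-fold threshold 1 of these genes (Wasl), 4 of the further actin genes and 2508 of all tested genes fell. The ratio of the groups' share of named counts was 9.28 without the acinar genes in the denominator. Same-numbered AP and control libraries did not deviate together (correlations of -0.03, 0.03 and -0.11, beside -0.12 to 0.14 for differently numbered ones). No pairing by number was thus seen, though 3 libraries per group cannot exclude one. With the replicate number as a block 37 of these genes rose and 3 fell, 53 and 9 of the further actin genes, and 4200 and 3704 of all tested genes. The log2 difference of the ratio of Was to Wasl was 6.02 with 5 counts added.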

Other observations

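Counts of leukocyte-linked genes were set against those of Ptprc, the pan-leukocyte gene for CD45, in the same library, a comparison chosen after the values had been seen. Lcp1 had the largest difference of the genes set against Ptprc. It had 1.81 ± 0.299 counts per Ptprc count in AP and 14.2 ± 0.937 in controls (SD, n = 3 each), without overlap. The control mean was 7.84 times the AP mean. Wipf1 was also higher in controls without overlap, at 0.329 to 0.499 in AP and 0.517 to 0.935 in controls, where the control mean was 1.80 times the AP mean. The gap between the Wipf1 groups (0.499 against 0.517) is narrow and was not tested. Coro1a had 0.263 to 0.463 counts per Ptprc count in AP and 0.380 to 0.516 in controls, and Was had 0.107 to 0.156 in AP and 0.0400 to 0.129 in controls, both with overlap. Capg had 0.504 to 0.601 in AP and 0.381 to 0.510 in controls, also with overlap. Hcls1 had 0.288 to 0.453 in AP and 0.290 to 0.470 in controls, with overlap as well. Nckap1l had 0.484 to 0.665 in AP and 0.305 to 0.548 in controls, again with overlap. Arpc1b and Msn, which many cell types express, had 1.07 to 1.21 and 1.49 to 1.96 in AP, against 2.58 to 3.77 and 2.79 to 3.81 in controls. Myo1f had 0.526 to 0.641 in AP and 0.310 to 0.339 in controls, higher in AP without overlap. Control libraries held few counts of several of these genes, with 34 to 45 of Nckap1l, 18 to 47 of Hcls1 and 21 to 39 of Myo1f. Their control ratios therefore carry a wide counting error. What holds the Lcp1 counts of the control libraries was not tested.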
